A study of Mus musculus with 4 samples.

Results

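The genes described here are 10 receptors, bridging ligands and effectors of efferocytosis, the engulfment of dying cells by phagocytes. They were taken by symbol from a table of 24138 rows, in which each of the 10 had 1 row with a value for each of 4 livers. Mertk, Axl, Tyro3 and Stab1 encode receptors, Gas6, Pros1 and Mfge8 encode bridging ligands, Adam17 encodes a sheddase, and Elmo1 and Rac1 encode effectors of engulfment. The livers came from male C57BL/6J mice aged 18 weeks, all of them given the FAT-MASH diet, a diet that models metabolic dysfunction-associated steatohepatitis (MASH), and all of them treated with resolvin D1 (RvD1), a lipid mediator of the resolution of inflammation. Every liver analysed here carried both the diet and the treatment, and livers without either were not analysed here, so the values give levels and their spread, with no measure of what RvD1 or the diet did. The livers are named 1 to 4 as in the labels, which do not say whether each came from a separate animal. RNA was sequenced from whole liver after poly(A) selection, so fewer cells of a type and less RNA per cell cannot be told apart.

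Dying cells expose phosphatidylserine on their surface. Mertk, Axl and Tyro3 are the TAM receptor tyrosine kinases. They bind that lipid indirectly through Gas6 or, for some of them, protein S (the product of Pros1). Mfge8 links the lipid to integrins, and Stab1 binds it directly. Engaged receptors signal through Elmo1, which with Dock proteins activates the GTPase Rac1 and so drives the actin rearrangement of engulfment. Adam17 is a membrane protease that can cleave Mertk from the cell surface. In liver, Mertk is known from Kupffer cells, other macrophages and endothelium, and Stab1 from sinusoidal endothelium and macrophages.

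The 250 bases upstream of the RefSeq start (GRCm38.p6) are shown for the TAM receptors and Gas6, because these receptors form a family whose members differed widely in level and Gas6 is the ligand that all of them bind. Each is printed 5′ to 3′ on the gene's strand, with capitals marking the GC box, GGGCGG or CCGCCC.
Mertk promoter, chr2:128698665-128698914, plus strand: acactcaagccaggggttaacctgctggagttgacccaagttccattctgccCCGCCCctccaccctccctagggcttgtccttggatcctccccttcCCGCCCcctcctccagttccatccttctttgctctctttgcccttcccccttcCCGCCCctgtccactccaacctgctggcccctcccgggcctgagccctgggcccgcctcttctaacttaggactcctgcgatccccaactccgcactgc
Axl promoter, chr7:25788734-25788983, minus strand: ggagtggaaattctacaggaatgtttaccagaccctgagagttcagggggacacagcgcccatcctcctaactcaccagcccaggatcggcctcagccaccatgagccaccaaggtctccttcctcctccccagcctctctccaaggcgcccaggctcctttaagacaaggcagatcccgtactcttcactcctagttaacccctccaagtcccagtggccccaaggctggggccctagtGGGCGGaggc
Tyro3 promoter, chr2:119799264-119799513, plus strand: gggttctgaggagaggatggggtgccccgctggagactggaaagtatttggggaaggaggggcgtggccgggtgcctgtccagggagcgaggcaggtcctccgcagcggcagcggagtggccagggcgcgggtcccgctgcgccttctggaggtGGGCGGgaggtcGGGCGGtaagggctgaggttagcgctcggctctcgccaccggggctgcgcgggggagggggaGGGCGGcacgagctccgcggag
Gas6 promoter, chr8:13494536-13494785, minus strand: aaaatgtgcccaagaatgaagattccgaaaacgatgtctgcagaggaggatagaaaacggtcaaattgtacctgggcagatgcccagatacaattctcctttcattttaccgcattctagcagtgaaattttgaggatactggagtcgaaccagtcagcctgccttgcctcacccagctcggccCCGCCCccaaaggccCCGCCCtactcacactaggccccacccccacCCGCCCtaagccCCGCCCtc

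A GC box was found on either strand in the Mertk (3 matches), Axl (1 match), Tyro3 (3 matches) and Gas6 (4 matches) promoters, and any link to level was not tested. Of all 32851 upstream windows of this length in the RefSeq table, 32.7% held a GC box. The share of G and C was 63.6%, 60%, 73.2% and 54.8% in these promoters in that order, against a median of 52.4% over all windows. The promoters of Pros1, Mfge8, Adam17 and the first of 2 start sites of Elmo1 held at least 1 as well, that of Stab1 and the second Elmo1 site each held 0, and Rac1 had no entry. The AP-1 motif TGANTCA was found in 0 of the 9 members with an entry and in 6.75% of all windows. A match is a stretch of letters and not a measured binding site. The RefSeq start of Tyro3 lies inside the span given for the gene in the deposited table.

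The values are FPKM, sequenced fragments scaled by transcript length and by the depth of the library, so that levels of different genes can be compared per length. Depth was estimated at 18.8 to 20.1 M fragments per liver (M, mega). A mean of at least 1 FPKM, here called expressed, was reached by 10541 rows of the table and by 8 of the 10 members. Lists of cell type markers were read beside the labelled tissue. They were drawn up with earlier results of these data known. They left out Alb and Apoe, which are abundant in liver but were listed at 0 in all 4 livers. All 10 hepatocyte markers were expressed and summed to between 46150 and 59622 FPKM per liver, all 10 stellate, all 10 sinusoidal endothelial and all 6 cholangiocyte markers were expressed, as were 9 of 10 macrophage markers, 1 of 6 T and B cell markers and 2 of 6 neutrophil markers, and 0 markers were listed at 0 in all 4 livers. The hepatocyte sum was lowest in liver 2, as were Apoa2, Cps1, Cyp2e1 and Ass1, while each other hepatocyte marker was lowest in another liver.

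The TAM receptors were present at very different levels, with Axl above Mertk and Tyro3 close to the limit of detection. Axl (XLOC_019611, chr7:25756500-25788733) had 7.46, 8.95, 7.997 and 7.09 FPKM in livers 1 to 4, a mean of 7.87 ± 0.810 FPKM (SD, n = 4). Liver 2 was the highest and liver 4 the lowest. Mertk (XLOC_011708, chr2:128698997-128802188) had 3.11, 4.07, 3.00 and 2.86 FPKM, a mean of 3.26 ± 0.550 FPKM (SD, n = 4). Livers 1, 3 and 4 lay close together and liver 2 stood above them. These values correspond to roughly 221 to 323 fragments per liver over the longest annotated Mertk transcript of 4302 bases.

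The FPKM of Axl was 2.40, 2.199, 2.66 and 2.48 times that of Mertk in livers 1 to 4, a mean ratio of 2.44 ± 0.193 (SD, n = 4). Axl was the higher in 4 of 4 livers, and the lowest Axl value exceeded the highest Mertk value. The difference on the log2(FPKM + 1) scale was 1.06 ± 0.08 (SD, n = 4; two-sided exact sign-flip permutation test, p = 0.125, adjusted p = 0.138 over 11 pairs of members). With 4 livers 0.125 is the smallest p that this test can give, so it cannot pass 0.05 for any pair.

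Tyro3 (XLOC_011650, chr2:119797740-119818103) reached only 0.162, 0.180, 0.109 and 0.0262 FPKM in the 4 livers in order. Over its longest transcript of 4460 bases this is about 13.8, 14.8, 9.1 and 2.1 fragments by the rough depth above. The low value of liver 4 thus probably rests on very few fragments and gives no usable ratio. In livers 1 to 3 the FPKM of Mertk was 19.2, 22.6 and 27.6 times that of Tyro3. Tyro3 is best known from the nervous system, and its highest value in liver was below the lowest value of every other member.

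Stab1 (XLOC_006519, chr14:31134853-31168641), which encodes the scavenger receptor stabilin-1, had 3.82, 5.54, 4.31 and 4.27 FPKM in livers 1 to 4, a mean of 4.49 ± 0.738 FPKM (SD, n = 4). Liver 2 was again the highest, 1.28 times the next liver. Its FPKM was above that of Mertk in 4 of 4 livers, with a mean ratio of 1.38 ± 0.116 (SD, n = 4), although their ranges over the livers overlapped. Stab2, which encodes the related stabilin-2 of sinusoidal endothelium, had 3.49, 4.83, 3.44 and 3.84 FPKM, again most in liver 2. The span given for Stab1 is shared with Nt5dc2 on the opposite strand, whose annotated exons cover 1.09% of the exon bases of Stab1 and which had 6.03 ± 0.807 FPKM (SD, n = 4).

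Gas6 and Pros1, which encode ligands of TAM receptors, were more abundant per length than any TAM receptor, and Mfge8 was close to Pros1. Gas6 (XLOC_021147, chr8:13465374-13494535) had 41.97, 50.98, 41.1 and 37.98 FPKM in livers 1 to 4, a mean of 43.0 ± 5.59 FPKM (SD, n = 4). Pros1 (XLOC_008027, chr16:62854334-62929340), which also serves as an anticoagulant made by hepatocytes, had 20.9, 24.1, 17.6 and 20.8 FPKM, a mean of 20.8 ± 2.69 FPKM (SD, n = 4). Both were highest in liver 2, while the lowest value was in liver 4 for Gas6 and in liver 3 for Pros1. Gas6 exceeded Pros1 in 4 of 4 livers, by a mean FPKM ratio of 2.07 ± 0.213 (SD, n = 4), and their ranges did not overlap.

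Mfge8 (XLOC_019942, chr7:79133768-79149060), whose product milk fat globule-EGF factor 8 bridges to integrins containing the alpha v chain, had 19.04, 20.9, 19.4 and 19.3 FPKM in livers 1 to 4, a mean of 19.7 ± 0.838 FPKM (SD, n = 4). Its 4 values were close together, with liver 2 highest by 1.08 times the next liver. Mfge8 lay below Pros1 in 3 of 4 livers and above it in liver 3, and the difference between them was within the spread between livers (log2 difference of Mfge8 minus Pros1 -0.07 ± 0.15, SD, n = 4; two-sided exact sign-flip permutation test, p = 0.5, adjusted p = 0.5). The integrin chains that pair as its receptors had 3.63 ± 0.625 FPKM for Itgav, 43.3 ± 4.37 FPKM for Itgb5 and 0.374 ± 0.215 FPKM for Itgb3 (each SD, n = 4).

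The range of a ratio over the livers, its highest value divided by its lowest, was narrower than that of either gene alone in 5 of the 9 pairs of members that do not involve Tyro3. The pairs were chosen by role and share genes. No share over other pairs of expressed genes was computed, so this count has no comparison. The FPKM of Gas6 was 5.63, 5.69, 5.14 and 5.36 times that of Axl in livers 1 to 4, so the highest ratio was 1.11 times the lowest, against 1.34 times for Gas6 alone and 1.26 times for Axl alone. This difference in range was not tested. Pros1 was 6.70, 5.93, 5.85 and 7.28 times Mertk, and the highest of these ratios was 1.24 times the lowest, against 1.37 times for Pros1 alone and 1.42 times for Mertk alone. Both ligands were above the receptor in 4 of 4 livers. The other 3 narrower pairs were Axl to Mertk (1.21 times), Stab1 to Mertk (1.22 times) and Gas6 to Pros1 (1.28 times). Adam17 to Mertk (1.41 times), Mfge8 to Gas6 (1.24 times) and Mfge8 to Pros1 (1.28 times) lay between the ranges of their genes, and Rac1 to Elmo1 (1.64 times) was wider than either gene alone. Both genes were highest in liver 2 in all 5 narrower pairs, and in the pairs with Mfge8 as well.

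**Figure D1:**
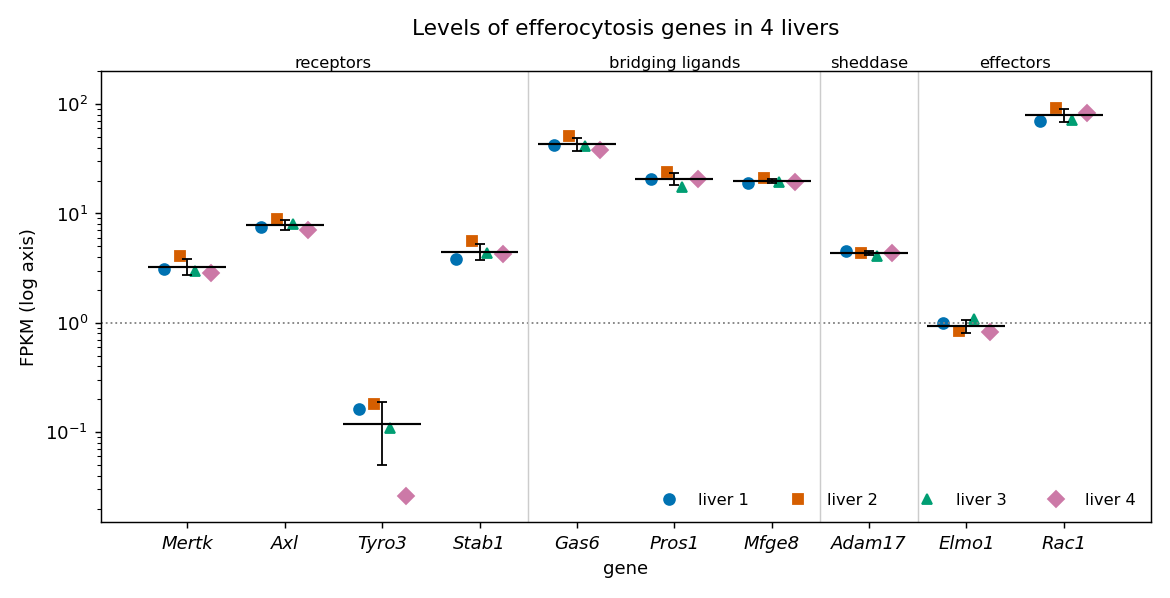
FPKM of the 10 members in each of 4 livers on a log axis, ordered by role, with the mean (horizontal line), SD (error bar, n = 4) and a dotted line at 1 FPKM. Rac1 and the ligands lie highest, Axl lies above Mertk in every liver, and Tyro3 lies between 0.0262 and 0.180 FPKM.

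Adam17 (XLOC_004763, chr12:21316392-21373632) varied little, with 4.499, 4.39, 4.08 and 4.34 FPKM in livers 1 to 4 and a mean of 4.33 ± 0.179 FPKM (SD, n = 4). Unlike the receptors it was highest in liver 1, with liver 3 lowest. Its FPKM was 1.45, 1.08, 1.36 and 1.52 times that of its substrate Mertk, lowest in liver 2, where Mertk was highest. Adam17 stayed above Mertk in 4 of 4 livers. Rhbdf2, which encodes the partner iRhom2 needed for maturation of the protease, had 5.30 ± 0.700 FPKM, and Timp3, which encodes its tissue inhibitor, had 13.6 ± 2.32 FPKM (each SD, n = 4). The span of Adam17 is shared with Iah1 on the opposite strand, which was far more abundant at 107 ± 8.08 FPKM (SD, n = 4) and whose exons cover 4.35% of the exon bases of Adam17. Whether the library kept strand is not given in the sources used here, so reads in that overlap cannot be told apart. How much such reads from the far more abundant Iah1 add to the level, rank and spread of Adam17 was not tested.

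Among the effectors, Rac1 (XLOC_016964, chr5:143505481-143527993) was the most abundant member, with 69.95, 92.3, 71.9 and 82.4 FPKM in livers 1 to 4 and a mean of 79.1 ± 10.4 FPKM (SD, n = 4). Liver 2 was highest and liver 1 lowest. Rac1 is used by most cell types for actin remodelling outside efferocytosis. Daglb on the opposite strand, at 13.95 ± 2.00 FPKM (SD, n = 4), has exons over 51.4% of the annotated exon bases of Rac1, and reads there cannot be assigned without strand. Daglb had 13.8, 12.6, 12.6 and 16.8 FPKM in livers 1 to 4, and its part in the Rac1 values was not tested.

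Elmo1 (XLOC_005123, chr13:20090507-20608356), the adaptor that acts upstream of Rac1, was low, with 1.01, 0.844, 1.08 and 0.819 FPKM in livers 1 to 4 and a mean of 0.936 ± 0.125 FPKM (SD, n = 4). It was highest in liver 3, and liver 2 lay below its mean, opposite to the receptors. The FPKM of Rac1 was between 66.8 and 109 times that of Elmo1. The paralogue Elmo2 had 2.83 ± 0.262 FPKM and the partner Dock1 2.92 ± 0.305 FPKM (each SD, n = 4), so both lay above Elmo1.

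Ordered by mean FPKM the members ran Rac1, Gas6, Pros1, Mfge8, Axl, Stab1, Adam17, Mertk, Elmo1 and Tyro3. In 7 of the 9 neighbouring pairs the values of the 4 livers did not overlap, and the gene with the higher mean was higher in 4 of 4 livers. The exceptions were Pros1 and Mfge8, and Stab1 and Adam17, where Stab1 was higher in 2 of 4 livers. Either rescaling of the livers also made the ranges of Adam17 and Mertk overlap, leaving 6 pairs. Rac1 had a higher mean than 90.9% of expressed genes, Gas6 than 85.0%, Axl than 50.2% and Mertk than 26.0%.

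Liver 2 held the highest value for 7 of the 8 expressed members, Adam17 being the exception. Of all 10541 expressed genes, 22.0% were highest in liver 2. The shares highest in livers 1, 3 and 4 were 17.9%, 26.8% and 33.3%, and 1, 0 and 0 expressed members were highest there. In liver 2, 8 of the 8 exceeded their own 4-liver mean, as did 45.1% of all expressed genes. On the log2(FPKM + 1) scale their median deviation there was 0.22, and the median over all expressed genes was -0.02. The deviation was 0.26 for Mertk, 0.26 for Stab1, 0.25 for Gas6, 0.23 for Rac1, 0.21 for Pros1, 0.17 for Axl, 0.08 for Mfge8 and 0.02 for Adam17. The values of the other 3 livers did not reach that of liver 2 for Mertk, where liver 2 was 1.36 times their mean, or for Stab1 (1.34 times), Gas6 (1.26 times), Rac1 (1.24 times), Pros1 (1.22 times), Axl (1.19 times) and Mfge8 (1.09 times). With each liver rescaled to the same sum, or divided by its median ratio, liver 2 was still the highest for 7 members.

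**Figure D2:**
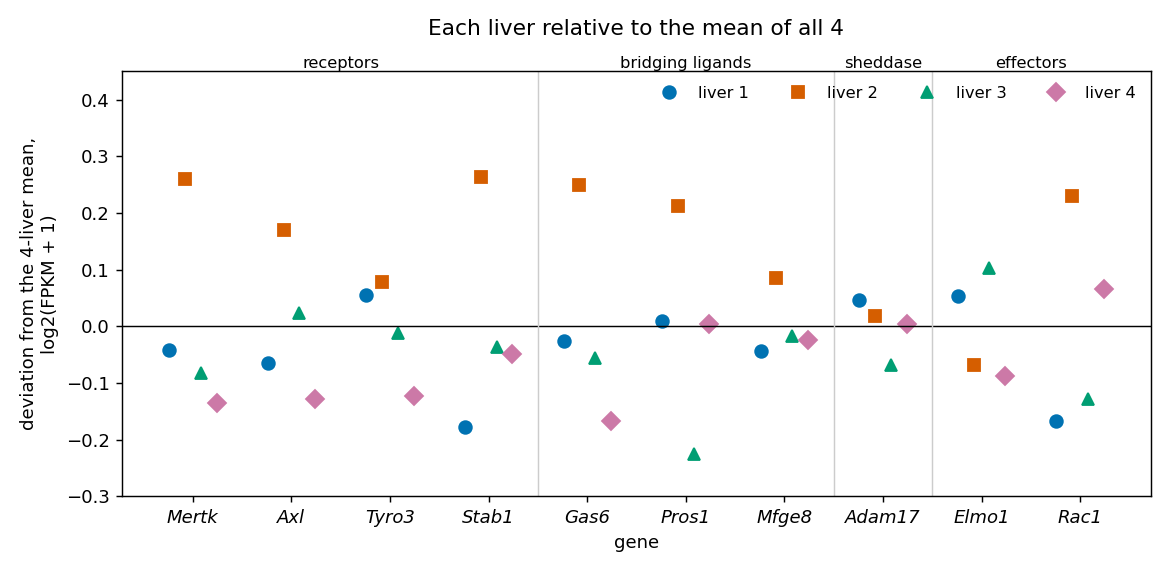
Deviation of each liver from the mean of all 4 on the log2(FPKM + 1) scale, for the 10 members ordered by role. Liver 2 (squares) lies highest for 8 of the 10, at 0.26 for Mertk and Stab1, and lies below the mean for Elmo1.

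In livers 1, 3 and 4 the median deviation of the 8 expressed members was -0.04, -0.06 and -0.04. Each deviation is taken from a mean that includes liver 2, and so the other 3 livers are pushed below 0 by it. Without liver 2 these medians became 0.02, 0.01 and 0.01, against -0.01, -0.02 and 0.03 over all expressed genes. The highest value then fell in liver 1 for 4 members, in liver 3 for 3 and in liver 4 for 1. The shares of all expressed genes highest in each liver were not computed without liver 2, so these counts have no comparison.

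No expressed member had 1 liver so far from the rest that Dixon's ratio, the gap to the nearest liver divided by the whole range, passed its 95% critical value (0 of 8, against 5.46% of all expressed genes). The ratio was nearest to it for Mfge8 (0.785) and Mertk (0.766). The SD between livers on the log2(FPKM + 1) scale was 0.19 for Stab1, 0.18 each for Rac1, Pros1, Mertk and Gas6, 0.13 for Axl, 0.06 for Mfge8 and 0.05 for Adam17. The median over these 8 was 0.18, close to the 0.16 of all expressed genes. Adam17 and Mfge8 were among the steadiest transcripts, since only 2.87% and 4.73% of expressed genes had a smaller SD. Without liver 2 the median SD of the members was 0.08, and the SD of Mertk fell from 0.18 to 0.05. The median SD of the wider list of efferocytosis genes described below went from 0.15 to 0.14. That of all expressed genes was not computed without liver 2.

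**Figure D3:**
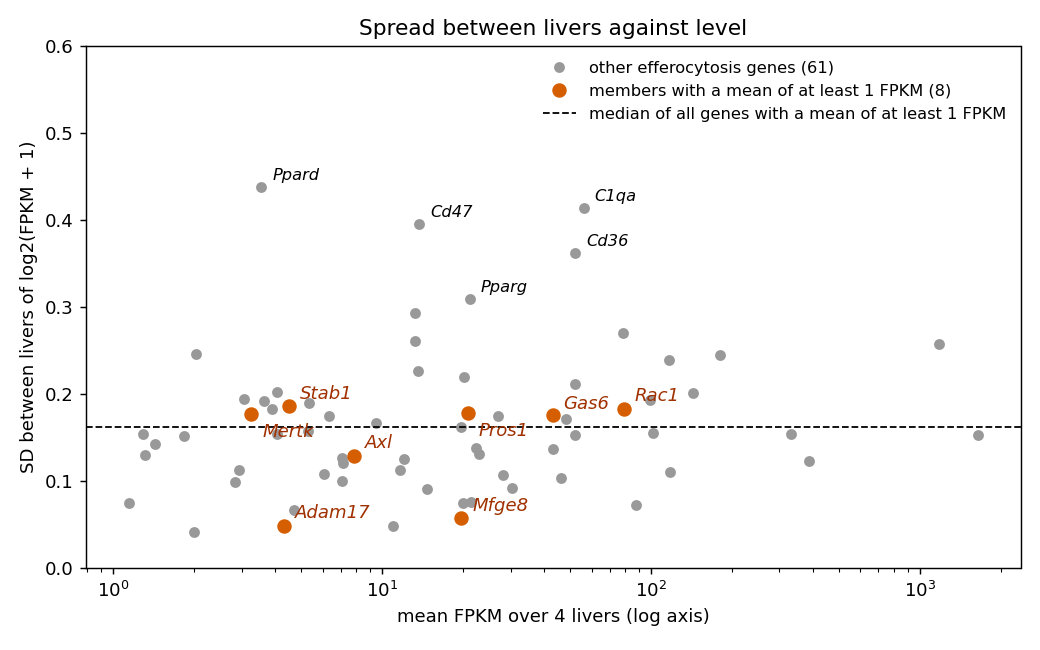
SD between livers of log2(FPKM + 1) against mean FPKM (log axis) for the 8 expressed members and 61 other expressed efferocytosis genes, with the median of all expressed genes, 0.16, as a dashed line. Adam17 and Mfge8 lie far below the line, and the 5 labelled genes of the other set lie highest.

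The summed markers of several cell types also differed between livers. The 10 macrophage markers summed to 213, 281, 214 and 296 FPKM in livers 1 to 4, so livers 2 and 4 were high, and 3 of the 9 expressed markers were highest in liver 2. The 10 sinusoidal endothelial markers summed to 75.4, 101, 87.8 and 92.6 FPKM, with 6 of 10 highest in liver 2, and the 10 stellate cell markers to 282, 343, 237 and 262 FPKM, with 6 of 10 highest there. The 6 neutrophil markers in the table summed to 10.5, 18.7, 11.7 and 8.39 FPKM, also highest in liver 2. The hepatocyte sum was lowest there, but Apoa2, Cps1, Cyp2e1 and Ass1 were its only markers lowest in that liver. Apoa2, a large part of the sum, had 17254.5, 11165.5, 20665.2 and 13518.2 FPKM in livers 1 to 4. The 6 cholangiocyte markers summed to 238, 208, 194 and 215 FPKM, highest in liver 1, with 1 of 6 highest in liver 2. Spp1 alone, at 214, 182, 171 and 195 FPKM, made up most of that sum and set its order. The 6 T and B cell markers in the table summed to 2.51, 3.20, 3.43 and 3.23 FPKM, highest in liver 3. The part of these cell types in the values of the members was not tested.

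Set against the summed macrophage markers of the same liver, Mertk came to 1.46%, 1.45%, 1.41% and 0.964% in livers 1 to 4. By this measure liver 2 was level with livers 1 and 3, and liver 4 was the lowest. Axl came to 3.51%, 3.18%, 3.75% and 2.39% of that sum, and Stab1 to 1.80%, 1.97%, 2.02% and 1.44%, both also lowest in liver 4. Lyz2 makes up a large part of the sum, and without it Mertk came to 2.64%, 2.64%, 2.65% and 1.77%. Against Csf1r alone, the receptor gene of the macrophage growth factor, Mertk was 26.7%, 25.3%, 21.4% and 21.3%, with livers 3 and 4 level. Against the Kupffer cell marker Clec4f it was 31.1%, 36.6%, 35.8% and 24.4%, and against Cd68 it was 12.4%, 13.7%, 15.2% and 8.85%. Liver 4 was the lowest against each of these, while the order of livers 1 to 3, and whether liver 4 stood apart, depended on the marker chosen. Against the sinusoidal endothelial sum Mertk came to 4.13%, 4.02%, 3.42% and 3.08%. Stab1 ranged from 4.61% to 5.47% of that sum, with liver 2 highest. Against Csf1r alone Stab1 was 32.8%, 34.5%, 30.8% and 31.9%, lowest in liver 3. It was lowest in liver 4 against each of Adgre1, Clec4f, Lyz2 and Cd68.

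**Figure D4:**
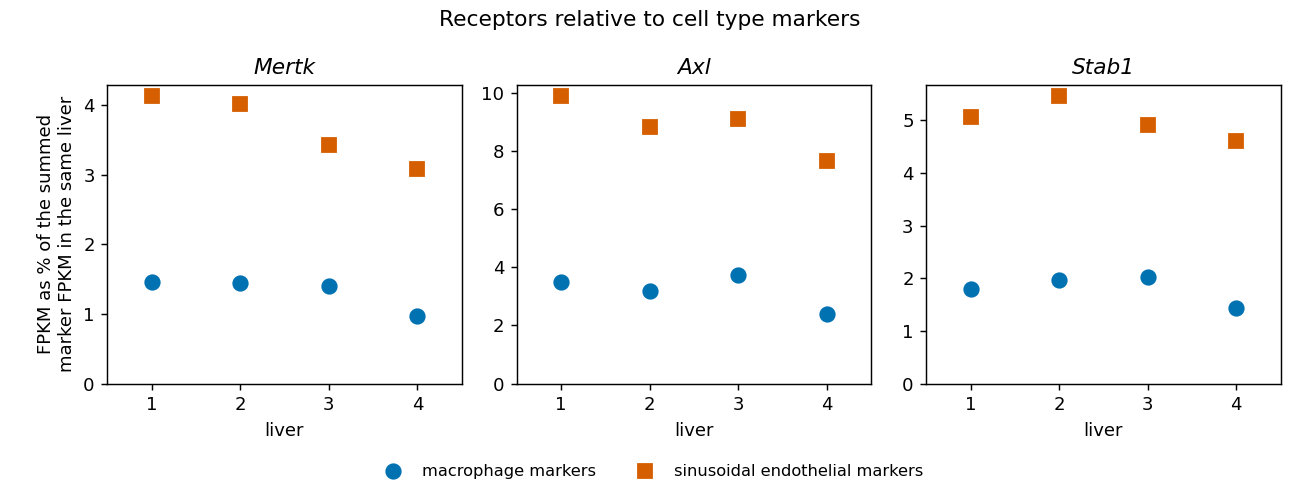
FPKM of Mertk, Axl and Stab1 in each liver as a percentage of the summed FPKM of 10 macrophage markers (circles) and of 10 sinusoidal endothelial markers (squares), each axis starting at 0. Liver 4 is lowest in all 3 panels for both sets, at 0.964% of the macrophage sum for Mertk.

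The genes whose pattern over the 4 livers was most like that of Mertk were Klhl13, Ldhb and Arhgap19. Likeness was the largest absolute difference in log2 deviation in any of the 4 livers, which was 0.02 for each of them. A total of 27 of 10540 other expressed genes lay within 0.05 of Mertk by this measure, and 4 livers give little power to tell one pattern from another.

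A wider list of 75 other efferocytosis genes, all of them in the table, was read for the same quantities. Of these 75, 61 were expressed, 3 were listed at 0 in all 4 livers, and the median SD of the expressed genes was 0.15 on the log2(FPKM + 1) scale. Liver 2 held the highest value for 25 of the 61, against 22.0% of all expressed genes. Dixon's ratio marked 1 liver as apart for 5 of the 61, against 5.46% of all expressed genes.

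Other receptors and scavengers were expressed for 10 of 19 genes. Scarb1, the high-density lipoprotein receptor, had the highest mean at 143 ± 20.04 FPKM, followed by the fatty acid translocase Cd36 at 52.1 ± 12.9 FPKM and the low-density lipoprotein receptor-related Lrp1 at 46.1 ± 3.31 FPKM (each SD, n = 4). Cd36 was 47.2, 67.1, 37.05 and 57.04 FPKM in livers 1 to 4, highest in liver 2 and lowest in liver 3. Timd4, a phosphatidylserine receptor of resident macrophages, was below 1 FPKM in every liver, from 0.0450 to 0.297 FPKM. Adgrb1 and Megf10 were listed at 0, which may be a failed estimate, since Alb and Apoe, abundant in liver, were also listed at 0 in all 4 livers.

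Bridging and eat-me molecules were expressed for 11 of 13 genes and were led by secreted products of hepatocytes. Apoh had 1643 ± 180 FPKM and complement C3 1174 ± 215 FPKM, while Calr, which encodes calreticulin, had 331 ± 35.2 FPKM (each SD, n = 4). C1qa, a chain of complement C1q, was 43.96, 76.8, 41.5 and 62.2 FPKM in livers 1 to 4, high in livers 2 and 4 as the macrophage markers were. Edil3, the relative of Mfge8, was listed at 0.

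Find-me and do-not-eat-me genes were expressed for 7 of 9. Cd47, the do-not-eat-me ligand, was 14.3, 16.97, 8.65 and 15.1 FPKM in livers 1 to 4, so liver 3 lay well below the rest. Cd24a had 13.2 ± 3.06 FPKM and the sphingosine 1-phosphate receptor gene S1pr1 13.3 ± 2.59 FPKM (each SD, n = 4).

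Engulfment signalling genes were expressed for 11 of 12, with a median SD of 0.10 on the log2(FPKM + 1) scale. The GTPase genes Cdc42, Rhoa and Rhog had 99.2 ± 13.0, 88.0 ± 4.49 and 30.5 ± 1.98 FPKM (each SD, n = 4), so Cdc42 and Rhoa were of the order of Rac1. All 12 phagosome and cargo genes were expressed, led by the lysosomal membrane gene Lamp1 at 387 ± 33.7 FPKM, the acid lipase gene Lipa at 117 ± 8.86 FPKM and Rab7 at 117 ± 18.97 FPKM (each SD, n = 4). Lamp1 and Rab7 were highest in liver 4 and Lipa in liver 2.

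Liver X receptors, retinoid X receptors and peroxisome proliferator-activated receptors are known to induce efferocytosis genes in macrophages. The 5 genes of these factors on the list were all expressed. Of these, 0 of 5 were highest in liver 2, a count that 5 genes cannot set apart from the 22.0% of all expressed genes. Rxra had 101 ± 11.0 FPKM, the liver X receptor genes Nr1h3 and Nr1h2 had 52.1 ± 5.72 and 22.2 ± 2.33 FPKM (each SD, n = 4), and these 3 were highest in liver 3. Ppard was 2.96, 2.696, 5.88 and 2.65 FPKM in livers 1 to 4, again highest in liver 3, while Pparg was 15.2, 22.2, 21.7 and 25.8 FPKM, lowest in liver 1 and highest in liver 4. All 5 shedding genes were expressed, with Adam9 at 21.3 ± 1.14 FPKM and Adam10 at 7.13 ± 0.679 FPKM (each SD, n = 4).

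**Figure D5:**
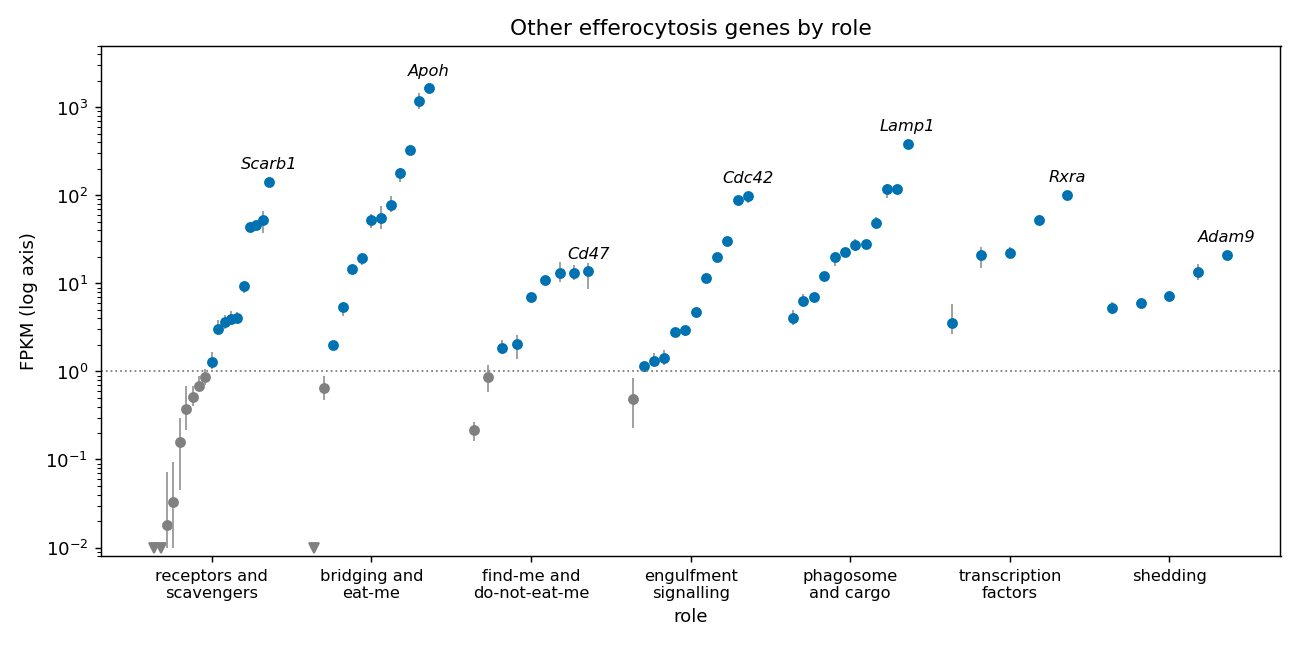
Mean FPKM (points, log axis) and range over 4 livers (lines) of the 75 other efferocytosis genes by role, with genes below 1 FPKM in grey, genes listed at 0 as triangles at the lower edge, and the most abundant gene of each role named. Receptors and scavengers hold 9 of the 14 genes below 1 FPKM.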

How the data were processed

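Gene expression was measured by RNA sequencing of 4 livers of 1 group. Per the submitters' processing notes the tools were FastQC 0.10.1, Trim Galore 0.6.3, cutadapt, STAR 2.7.6a and Cufflinks 2.2.1, with the mm10 build. Values deposited by the authors were treated as FPKM, because they are not whole numbers and the identifiers have the form Cufflinks writes. The unit is not stated in the file header or labels. Columns were matched through the sample descriptions, and 1 was added to each start, which raised the share of starts equal to RefSeq from 2.99% to 52.1%.

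The members and lists were chosen with earlier results of these data known. Values were analysed as log2(FPKM + 1) with Python 3.11.15 and numpy 2.4.6, and the ratio and SD routines were tested on simulated data. Depth was estimated from single-transcript genes longer than 800 bases in GENCODE vM21, as the median product of FPKM and length less 200 bases between 25 and 75. It is approximate, because the medians fell near the middle of that window, which may have set them. Fragments per gene use the longest transcript. Member pairs were compared by exact sign-flip permutation with Benjamini-Hochberg adjustment, which measures only the spread between these samples. Named genes are the members, the 3 highest of each role, those listed at 0, the 5 with the largest SD and the 3 most like Mertk. Stab2, the integrin chains, Timd4, Rhbdf2, Elmo2, Dock1, C1qb, C1qc, the overlapping genes, the single markers and the genes of the closing section were named after their values were seen. Rubcn was read under its older symbol, and 1 further gene, not counted in the wider list, is not reported here. Alternatives were another pseudocount, other minimum means, 2 rescalings and leaving out each liver.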

Additional observations from a re-analysis of the deposited data

Results flagged for a closer look

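None of the 10 members had 1 liver far from the other 3 by Dixon's ratio, and on the log2(FPKM + 1) scale neither did any of the 11 differences between members. As plain FPKM ratios, Mertk to Tyro3 (gap ratio 0.907) and Axl to Tyro3 (0.878) had liver 4 apart, where Tyro3 rests on an estimated 2.1 fragments. Among the other efferocytosis genes 5 did, by a gap that was a large part of the whole range, and chance marks about 1 in 20 groups of 4 in this way. Nr1h2 was 25.7 FPKM in liver 3, against values from 20.9 to 21.2 FPKM elsewhere (gap ratio 0.932). Ppard was 5.88 FPKM in liver 3, against values from 2.65 to 2.96 FPKM elsewhere (0.871). Abca7 was 0.980 FPKM in liver 4, against values from 1.18 to 1.21 FPKM elsewhere (0.849). Adam9 was 19.6 FPKM in liver 3, against values from 21.7 to 22.1 FPKM elsewhere (0.836). Odc1 was 31.5 FPKM in liver 4, against values from 26.6 to 27.4 FPKM elsewhere (0.834).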

How the results depend on the processing

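The median SD of the expressed members ranged from 0.0756 to 0.178 when 1 liver was left out, the low value coming from leaving out liver 2. With 1 liver left out, the median deviation of the members ranged from -0.0846 to 0.0179 in liver 1, from 0.182 to 0.203 in liver 2, from -0.0868 to 0.00808 in liver 3 and from -0.0731 to 0.00712 in liver 4, and each sign change came from leaving out liver 2. Rescaling the livers to the same sum moved liver 4 to -0.14. Its values summed to 570681 FPKM, against 516816 to 524394 FPKM in the other livers, so this rescaling lowers liver 4 relative to them. The median over all expressed genes in liver 4 moved as well, from 0.04 to -0.05. The count of members with 1 liver apart was 0 under every alternative run, and Dixon's ratio was not computed with 3 livers. The rescaling to 1 sum changed each mean level, because it changes the unit, and brought Elmo1 above 1. Alternatives for the order of levels, the marker ratios and the left-out livers of the wider list were chosen after seeing the data. No paired comparison between groups was possible because there is 1 group. Tyro3 had the fewest fragments of the members, about 2.1 to 14.8 per liver by the rough estimate of depth.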

Other observations

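The 3 chains of complement C1q, a bridging molecule made largely by macrophages in liver, were all highest in liver 2, as were 22.0% of all expressed genes, and C1qb and C1qc were picked after their values were seen. C1qb had 68.6, 98.6, 64.97 and 82.5 FPKM and C1qc 42.4, 60.9, 51.6 and 53.2 FPKM in livers 1 to 4, while the macrophage marker sum was highest in liver 4. Sirpa, which encodes the receptor of Cd47, lay between 10.6 and 11.5 FPKM. Abca1, a cholesterol exporter induced after engulfment, had 19.3, 19.7, 19.1 and 21.5 FPKM, with liver 4 highest.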
